A study of Mus musculus with 12 samples.

Results

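Cells of the unchallenged adult mouse heart that carry the YFP label of a *Bmi1* reporter (*Bmi1*-CPC) were set against SCA-1+ cells without that label (*Sca-1*-YFP- cells), to ask which genes set the labelled cells apart. The comparison took the 8 homeostatic libraries out of 12 in the series, 4 per population, and the 12450 of 12528 listed genes with a value over 1 in at least 4 of the 8 libraries. The filter did not use the difference between the populations, but 65 genes passed it only through *Bmi1*-CPC libraries, with no *Sca-1*-YFP- library above 1, and 13 only through *Sca-1*-YFP- libraries. The direction of these genes was fixed by the filter (64 of the 65 were called higher and 13 of the 13 lower), and counts of lists that hold many of them are given as a description only. Both populations came from *Bmi1* CreER/+;*Rosa26* YFP/+ mice on C57BL/6, in which tamoxifen (TM) frees Cre in *Bmi1*-expressing cells and the *Rosa26* locus then keeps YFP on in them and in their progeny. All mice received TM at 9 mg for each 40 g body weight in 3 daily injections, and hearts were taken 5 days after induction, rinsed with PBS and digested with collagenase. *Bmi1*-CPC were sorted as YFP+ cells, and *Sca-1*-YFP- cells as SCA-1+, YFP- and CD45- cells. Removal of CD45+ cells, the leukocytes, is described for the *Sca-1*-YFP- sort only, so that any difference in leukocyte RNA and the difference in gating cannot be told apart. The names of the *Bmi1*-CPC libraries read as positive for SCA-1 too, whereas the sort is described on YFP. If they were sorted on YFP alone, differences in other cell types and the difference in SCA-1 gating cannot be told apart either. Each library pooled the cells of 6 mice, and the 4 remaining libraries of the series, from infarcted hearts, were not part of the comparison.

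The non-myocyte fraction of the heart is made up mainly of endothelial cells, fibroblasts, mural cells (pericytes and smooth muscle) and leukocytes. Endothelial cells line the vessels and carry receptors for VEGF, angiopoietins and Notch ligands, fibroblasts make the collagen matrix and many of the secreted factors that these receptors bind, and mural cells wrap the vessels and answer to PDGF. BMI1 itself is a subunit of Polycomb repressive complex 1, which keeps silenced genes shut and is known for holding back the *Cdkn2a* locus in stem cells. In bulk RNA, fewer cells of a type and less RNA per cell cannot be told apart, and all values below are of populations, not of single cells.

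*Bmi1*-CPC libraries held 4063619 to 4993906 reads on listed genes and *Sca-1*-YFP- libraries 3397621 to 8031666. Mitochondrially encoded RNA took 33.8% to 44.3% of these reads in *Bmi1*-CPC against 13.5% to 30.4% in *Sca-1*-YFP- cells. Values are the authors' normalized signal, in which the reads, plus 0.5, were multiplied by 1 factor per library, and a count of 0 reads allows a value of up to 0.640 to 0.888 in *Bmi1*-CPC against 0.316 to 0.828 in *Sca-1*-YFP- cells (3 reads per library, counting error only). *Sca-1*-YFP- replicate 2 stood apart from its group: its summed value over 26 endothelial markers was 6921, against 3286, 4699 and 4736 in replicates 1, 3 and 4, and its mitochondrial share was the highest of the 4. Replicate 4 of both populations had the X-linked silencing RNA near 0 and the highest values of the Y-linked genes, so the pools were not alike in sex. The 5 sex-linked genes tested gave no call, and the calls that were lost without both replicates 4 are given with the dependence on processing.

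Of the 12450 genes, 4286 were called (34.4%, limma, Benjamini-Hochberg adjusted p under 0.05), 2090 of them higher in *Bmi1*-CPC (16.8%) and 2196 lower (17.6%). These shares are the background for every count below. Values given in fours are the libraries of replicates 1 to 4, values with ± beside a population are its mean and SD (n = 4 libraries each), a number with a gene in brackets is its log2 fold change, and p-values are limma's after adjustment over all tested genes. A ± after a log2 fold change is its standard error in limma. The median log2 fold change (*Bmi1*-CPC over *Sca-1*-YFP- cells, of log2(value + 1)) over all tested genes was 0.0037 and the median size of a change 0.32. A change of more than 1 log2 unit was reached by 972 called genes on the higher side and 1049 on the lower side, and one of more than 3 by 22 and 0. Changes of more than 3 were thus all on the side of *Bmi1*-CPC on this scale, although the counts of calls were nearly equal. When reads were scaled to library totals in edgeR, in place of the deposited scaling, the split was 1327 higher and 3386 lower and the median of all genes moved to -0.25. With totals that leave out the mitochondrially encoded genes it was 2472 and 1932, with the median at 0.085.

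**Figure D1:**
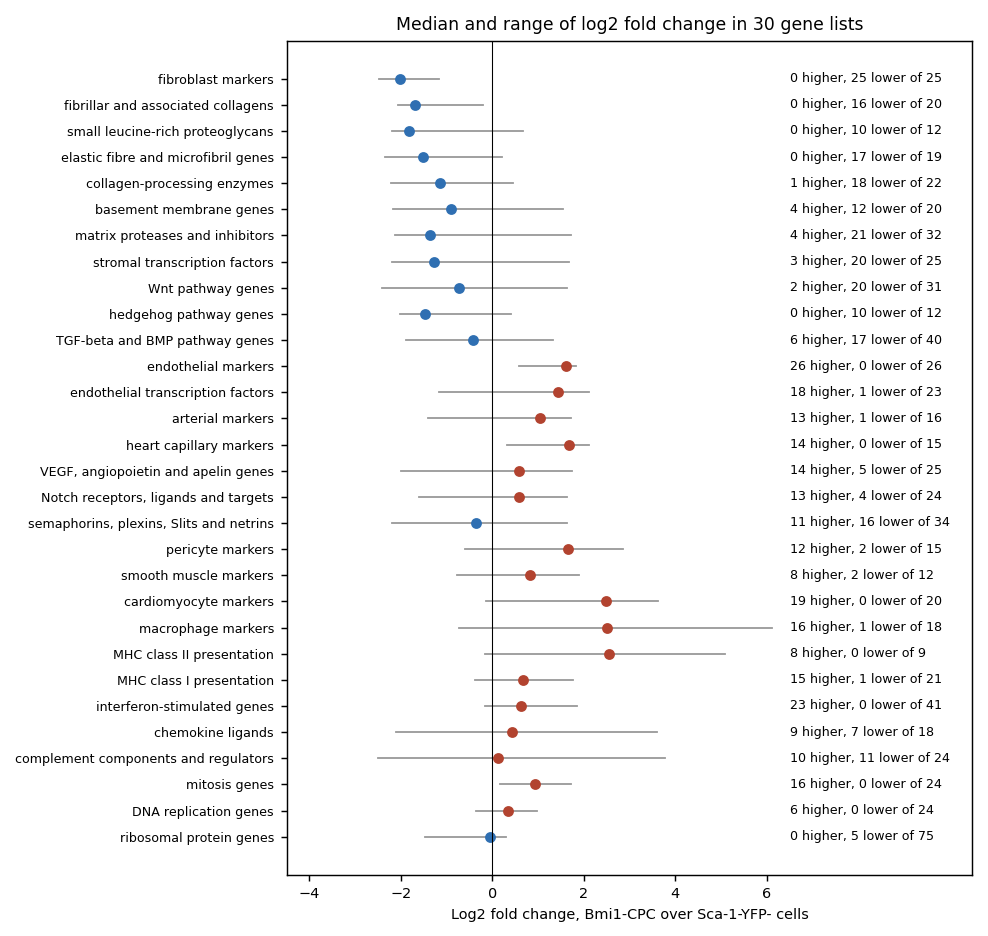
Median log2 fold change (*Bmi1*-CPC over *Sca-1*-YFP- cells, dot) and range (line) of the tested members of 30 gene lists, with the number called higher and lower at the right, out of those tested. The fibroblast list lay wholly below 0 (25 of 25 lower) and the endothelial list wholly above it (26 of 26 higher), while guidance, chemokine, complement and Notch genes were spread over both sides.

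The genes used for the sorts came first. *Bmi1* had values of 45.1, 43.4, 46.2 and 60.0 in *Bmi1*-CPC, against 25.6, 35.3, 26.6 and 25.0 in *Sca-1*-YFP- cells. The populations did not overlap, and *Bmi1* was higher in *Bmi1*-CPC (a log2 fold change of 0.77 ± 0.15, adjusted p = 0.00137). *Ly6a*, which encodes SCA-1, had 789.5, 810.5, 836 and 801 in *Bmi1*-CPC, against 508, 782, 679 and 599 in *Sca-1*-YFP- cells. It was not called (a log2 fold change of 0.35 ± 0.14, adjusted p = 0.0673), although with the replicate number as a block it was called (adjusted p = 0.034), and the highest *Sca-1*-YFP- library, replicate 2, lay just below the lowest *Bmi1*-CPC library, replicate 1. Of 29 tested Polycomb group genes 7 were higher and 1 was lower (median 0.072), *Rbbp7* (-0.42), a histone-binding subunit that other complexes share. *Phc2*, another subunit of Polycomb repressive complex 1, had 28.2 ± 4.81 in *Bmi1*-CPC against 15.4 ± 1.75 in *Sca-1*-YFP- cells (a log2 fold change of 0.82), and *Suz12*, a core subunit of complex 2, 60.3 ± 5.95 in *Bmi1*-CPC against 38.6 ± 5.54 in *Sca-1*-YFP- cells (0.64). *Rybp*, a partner of the variant complexes, had 50.6 ± 6.15 in *Bmi1*-CPC against 34.0 ± 5.59 in *Sca-1*-YFP- cells (0.57), and *Jarid2*, which helps bring complex 2 to its sites, 88.5 ± 6.02 in *Bmi1*-CPC against 65.6 ± 3.49 in *Sca-1*-YFP- cells (0.42). The share called higher, 7 of 29, is to be read against 16.8% of all genes. Under library totals the list gave 3 higher and 7 lower with a median of -0.18, *Jarid2* and *Rybp* were no longer called, and *Bmi1*, *Suz12* and *Phc2* stayed called. Without *Bmi1*-CPC replicate 2 the number of lower genes was 5.

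Fibroblast markers were lower in *Bmi1*-CPC. All 25 fibroblast markers were lower, with log2 fold changes between -2.47 and -1.17 and a median of -2.02. *Pdgfra*, the receptor that marks cardiac fibroblasts, had 282, 283, 229 and 254 in *Bmi1*-CPC, against 1058, 913, 1134 and 958 in *Sca-1*-YFP- cells. *Tcf21*, a transcription factor of the fibroblast lineage, had 38.0, 50.2, 23.5 and 42.2 in *Bmi1*-CPC, against 147, 151, 208 and 188 in *Sca-1*-YFP- cells. For both genes every *Bmi1*-CPC library lay below every *Sca-1*-YFP- library, and *Bmi1*-CPC replicate 3 was the lowest (a log2 fold change of -1.95 ± 0.12, adjusted p = 1.10e-06 for *Pdgfra*). The markers were low but not absent in *Bmi1*-CPC: their summed value was 5259 to 9790.4 in *Bmi1*-CPC against 27961 to 32579 in *Sca-1*-YFP- cells. Of the *Bmi1*-CPC libraries, replicate 3 had the lowest fibroblast sum and the highest endothelial sum (16043), and replicate 1 had the highest fibroblast sum and the lowest endothelial sum (13228).

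Structural matrix genes were mostly lower. Of 20 fibrillar and associated collagens 16 were lower and none higher. *Col1a1*, the main chain of type I collagen, had 307 ± 77.3 in *Bmi1*-CPC against 1239 ± 259 in *Sca-1*-YFP- cells (-2.03), *Col3a1* 706 ± 127 in *Bmi1*-CPC against 2923 ± 304 in *Sca-1*-YFP- cells (-2.06), and *Col5a1*, which starts fibril assembly, 128 ± 34.1 in *Bmi1*-CPC against 529 ± 97.5 in *Sca-1*-YFP- cells (-2.07). *Col18a1*, the basement membrane collagen that yields endostatin, was not called (23.8 ± 3.97 in *Bmi1*-CPC against 27.4 ± 2.48 in *Sca-1*-YFP- cells, -0.21). Of 12 small leucine-rich proteoglycans, which bind collagen fibrils and space them, 10 were lower and none higher. *Dcn* (decorin) had 3089, 2264, 1576 and 2361 in *Bmi1*-CPC, against 9512, 9073, 9889 and 8230.3 in *Sca-1*-YFP- cells, without overlap, and *Ogn*, *Lum* and *Bgn* had log2 fold changes of -2.20, -2.17 and -1.93. Of 19 elastic fibre and microfibril genes 17 were lower. Elastin itself, *Eln*, had 18.5 ± 8.67 in *Bmi1*-CPC against 64.4 ± 38.1 in *Sca-1*-YFP- cells (-1.63), fibrillin-1, *Fbn1*, 602 ± 122 in *Bmi1*-CPC against 2048 ± 613 in *Sca-1*-YFP- cells (-1.73), and *Efemp1*, a fibulin, 17.3 ± 5.14 in *Bmi1*-CPC against 90.8 ± 14.5 in *Sca-1*-YFP- cells (-2.36).

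Of the 15 genes that were lower by most (mean of at least 10 and no overlap), 3 belonged to the fibroblast list. *Cd248*, a surface protein of stromal cells, had 42.4 ± 8.12 in *Bmi1*-CPC against 237 ± 30.3 in *Sca-1*-YFP- cells (-2.47), *Pi16*, a secreted protein of adventitial fibroblasts, 139 ± 30.7 in *Bmi1*-CPC against 747 ± 105 in *Sca-1*-YFP- cells (-2.44), and *Scara5*, a ferritin receptor, 70.4 ± 13.5 in *Bmi1*-CPC against 354 ± 49.4 in *Sca-1*-YFP- cells (-2.32). *Entpd2*, an enzyme that splits extracellular ATP, had 28.7 ± 10.2 in *Bmi1*-CPC against 139.8 ± 23.2 in *Sca-1*-YFP- cells (-2.31), and *Ptgs2*, the inducible prostaglandin synthase, 41.9 ± 8.93 in *Bmi1*-CPC against 209.7 ± 30.5 in *Sca-1*-YFP- cells (-2.31). *Efhd1* (-2.54), *Gpr133* (-2.41), *Myoc* (-2.40), *Gpr64* (-2.40), *Emilin2* (-2.34), *Galntl1* (-2.34) and *Lrrn4cl* (-2.29) were lower without overlap too, and the remaining ones, *C3*, *Sfrp1* and *Efemp1*, are described with their groups.

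Of 22 genes for enzymes and chaperones of collagen 18 were lower and 1 was higher, *Plod1* (182 ± 12.7 in *Bmi1*-CPC against 132 ± 5.64 in *Sca-1*-YFP- cells, 0.46), a lysyl hydroxylase of the endoplasmic reticulum that was no longer called under library totals. The 3 that were lower by most act outside the cell. *Loxl1*, which crosslinks elastin, had 33.5 ± 6.32 in *Bmi1*-CPC against 159.8 ± 33.0 in *Sca-1*-YFP- cells (-2.21), *Adamts2*, which removes the procollagen N-propeptide, 101 ± 24.9 in *Bmi1*-CPC against 437 ± 77.2 in *Sca-1*-YFP- cells (-2.12), and *Pcolce2*, an enhancer of the C-propeptide cut, 58.5 ± 19.4 in *Bmi1*-CPC against 249 ± 32.2 in *Sca-1*-YFP- cells (-2.12). *Serpinh1*, the collagen chaperone of the endoplasmic reticulum, had 105 ± 11.3 in *Bmi1*-CPC against 182 ± 39.7 in *Sca-1*-YFP- cells (-0.76), and *P4hb*, the shared subunit of the prolyl hydroxylases, 184 ± 14.6 in *Bmi1*-CPC against 299 ± 18.5 in *Sca-1*-YFP- cells (-0.70). Of 28 general folding and stress genes 10 were lower and none higher, for example *Pdia4* at 62.5 ± 7.82 in *Bmi1*-CPC against 103 ± 16.4 in *Sca-1*-YFP- cells (-0.71). That number was 6 without *Bmi1*-CPC replicate 4, *Sca-1*-YFP- replicate 3 or *Sca-1*-YFP- replicate 4, and 18 under library totals.

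Basement membrane genes did not move as 1 group: 4 of 20 were higher and 12 lower. Of the 20, 1 had passed the filter only through *Sca-1*-YFP- libraries and was called lower. The type IV collagen chains did not move together. *Col4a1* and *Col4a2*, which share a promoter region and form the common network of vessels, had log2 fold changes of 0.28 (not called) and 0.52 (606 ± 18.1 in *Bmi1*-CPC against 423 ± 26.0 in *Sca-1*-YFP- cells), and *Col4a2* lost its call under library totals. The less widespread chains *Col4a3*, *Col4a4*, *Col4a5* and *Col4a6* were all lower, at -2.07, -1.89, -1.90 and -2.17. *Col4a5* had 29.7, 27.2, 20.1 and 26.1 in *Bmi1*-CPC, against 121, 118, 80.0 and 81.8 in *Sca-1*-YFP- cells, without overlap. Among laminins, the alpha chain of muscle and nerve basement membranes, *Lama2*, had 534 ± 101 in *Bmi1*-CPC against 2049.9 ± 306 in *Sca-1*-YFP- cells (-1.95), whereas *Lama5*, an alpha chain of vessel walls and epithelia, had 54.9, 85.6, 68.3 and 71.7 in *Bmi1*-CPC, against 16.9, 33.3, 28.7 and 30.5 in *Sca-1*-YFP- cells (a log2 fold change of 1.35 ± 0.20, adjusted p = 2.01e-04). *Lama3* was higher as well (31.3 ± 9.27 in *Bmi1*-CPC against 10.1 ± 3.01 in *Sca-1*-YFP- cells, 1.54), as was agrin, *Agrn* (146 ± 21.6 in *Bmi1*-CPC against 85.5 ± 14.6 in *Sca-1*-YFP- cells, 0.76). Perlecan, *Hspg2*, was not called (-0.12), and neither was *Sparc* (-0.20). Of 32 matrix proteases and inhibitors 4 were higher and 21 lower. Among them the inhibitor *Timp4* (1.73), the membrane-bound protease *Mmp15* (1.45) and the protease *Adamts9* (1.30) were higher, and the inhibitor *Timp2* (-2.01) and the gelatinase *Mmp2* (-1.90) lower.

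**Figure D2:**
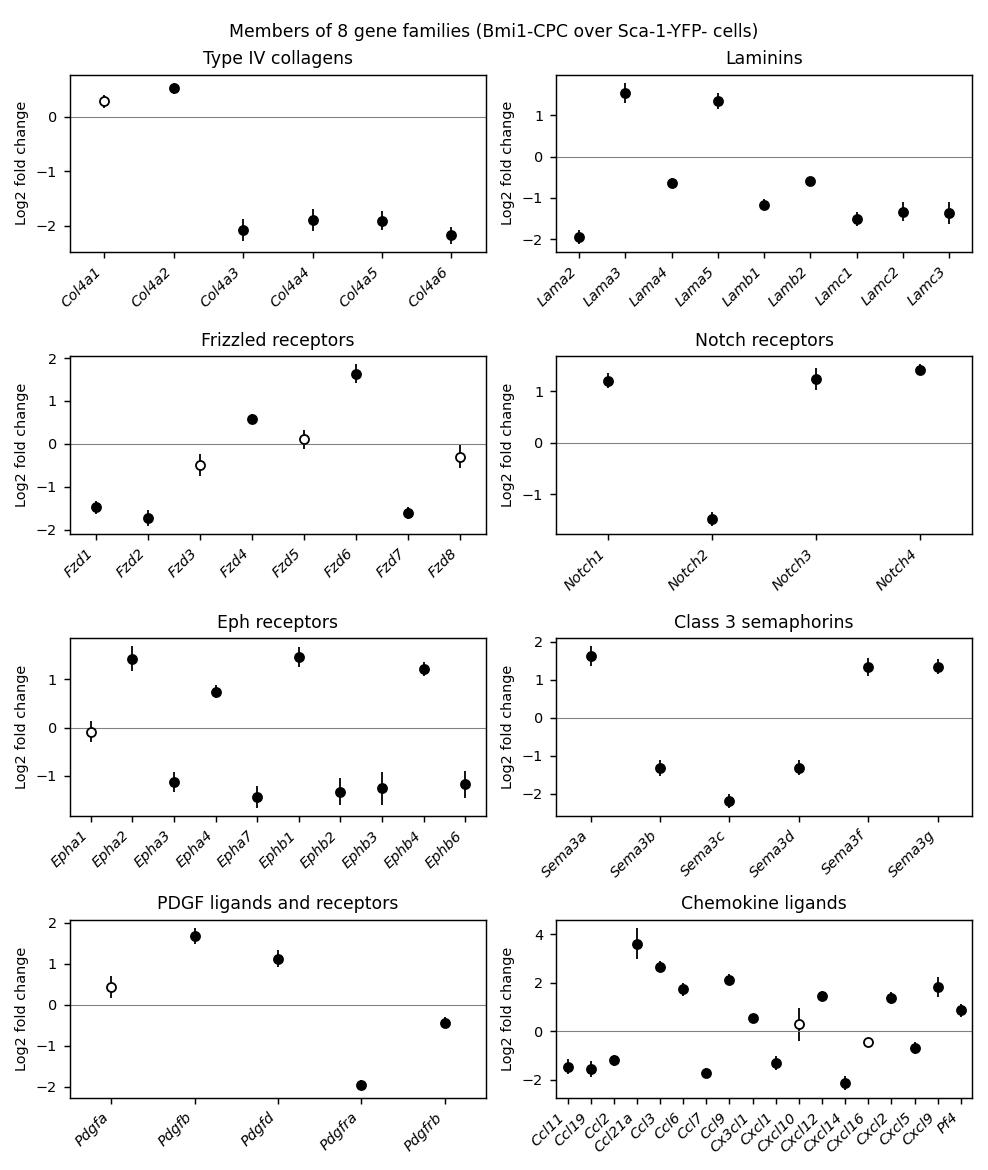
Log2 fold change (*Bmi1*-CPC over *Sca-1*-YFP- cells, with its standard error as bar) of members of 8 gene families, drawn for called (filled) and not called (open) genes. Within the type IV collagens, laminins, Frizzled receptors, Notch receptors, Eph receptors, class 3 semaphorins, PDGF genes and chemokines, members lay on both sides of 0.

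Stromal transcription factors gave 20 lower and 3 higher of 25. *Sox9*, *Osr1*, *Ebf2* and *Foxp2* had log2 fold changes of -2.19, -2.01, -2.02 and -1.99. *Gata4*, known both from heart muscle and from cardiac fibroblasts, had 22.9, 25.9, 24.5 and 28.2 in *Bmi1*-CPC, against 73.5, 59.6, 82.6 and 75.7 in *Sca-1*-YFP- cells, and *Tbx20* 136 ± 44.4 in *Bmi1*-CPC against 435 ± 88.8 in *Sca-1*-YFP- cells (-1.71). *Wt1*, a factor of the epicardium that is also made by some endothelial cells of the heart, went the other way with 33.3, 38.3, 35.7 and 30.6 in *Bmi1*-CPC, against 6.16, 13.5, 11.3 and 10.6 in *Sca-1*-YFP- cells (a log2 fold change of 1.68 ± 0.20, adjusted p = 4.42e-05). Of the other epicardial genes tested, *Tbx18* and *Aldh1a2* were lower and *Cldn15* was not called. *Tbx18* had 10.2 ± 2.36 in *Bmi1*-CPC against 30.5 ± 4.57 in *Sca-1*-YFP- cells (-1.51), *Aldh1a2*, a retinaldehyde dehydrogenase, 18.0 ± 2.99 in *Bmi1*-CPC against 73.5 ± 17.4 in *Sca-1*-YFP- cells (-1.95), and *Cldn15* a log2 fold change of 0.67. Other epicardial and mesothelial genes on the list, such as *Msln* and *Upk3b*, were not analysed here. *Ebf3* (0.67) and *Tcf4* (0.44) were the other stromal factors that were higher, and *Tcf4* lost its call under library totals.

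Signalling pathways were examined list by list. Of 31 Wnt pathway genes 20 were lower and 2 higher. The antagonist *Sfrp1* had 67.9, 71.8, 57.1 and 71.2 in *Bmi1*-CPC, against 366, 319, 404 and 346 in *Sca-1*-YFP- cells, the ligand *Wnt5a* 13 ± 1.38 in *Bmi1*-CPC against 41.1 ± 6.45 in *Sca-1*-YFP- cells (-1.59) and the antagonists *Sfrp2* and *Frzb* log2 fold changes of -1.44 and -1.43. The Frizzled receptors were divided. *Fzd1*, *Fzd2* and *Fzd7* were lower at -1.48, -1.72 and -1.61, and *Fzd6* was higher with 49.6, 55.8, 58.4 and 47.0 in *Bmi1*-CPC, against 12.5, 28.4, 15.2 and 12.8 in *Sca-1*-YFP- cells (a log2 fold change of 1.63 ± 0.22, adjusted p = 1.00e-04). *Fzd4*, the endothelial receptor for Norrin, was higher too (297 ± 17.3 in *Bmi1*-CPC against 200.3 ± 27.3 in *Sca-1*-YFP- cells, 0.57), but not under library totals. *Axin2*, a target gene that reads out Wnt activity through beta-catenin, was not called (4.03 ± 1.12 in *Bmi1*-CPC against 6.03 ± 1.89 in *Sca-1*-YFP- cells, -0.46). Of 12 hedgehog pathway genes 10 were lower and none higher, among them the effectors *Gli1* (3.57 ± 1.06 in *Bmi1*-CPC against 18.0 ± 6.41 in *Sca-1*-YFP- cells, -2.03), *Gli2* (-1.85) and *Gli3* (-1.69) and the coreceptor *Gas1* (51.6 ± 9.29 in *Bmi1*-CPC against 192 ± 22 in *Sca-1*-YFP- cells, -1.89). *Ptch1*, the receptor and itself a target of the pathway, was not called (102 ± 12.2 in *Bmi1*-CPC against 78.6 ± 18.5 in *Sca-1*-YFP- cells, 0.40) but was called once the replicate number served as a block (adjusted p = 0.0295).

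Among TGF-beta and BMP genes, 6 of 40 were higher and 17 lower. The ligands *Tgfb2* (26.8 ± 4.43 in *Bmi1*-CPC against 66.7 ± 11 in *Sca-1*-YFP- cells, -1.28) and *Tgfb3* (36.8 ± 6.60 in *Bmi1*-CPC against 86.4 ± 8.57 in *Sca-1*-YFP- cells, -1.22), the receptor *Tgfbr2* (-0.68) and the effector *Smad3* (25.8 ± 4.16 in *Bmi1*-CPC against 77.3 ± 22.8 in *Sca-1*-YFP- cells, -1.52) were lower. *Smad1*, an effector of BMP signals, was higher (92.7 ± 8.87 in *Bmi1*-CPC against 56.8 ± 10.3 in *Sca-1*-YFP- cells, 0.71), and so was its target *Id1* with 39.8, 86.0, 60.5 and 58.5 in *Bmi1*-CPC, against 12.6, 42.0, 23.8 and 21.9 in *Sca-1*-YFP- cells. *Id2* was lower (-0.83) and *Id3* was not called (0.13), so that the *Id* genes did not move together. In the IGF axis *Igf1* was lower (107 ± 31.9 in *Bmi1*-CPC against 347 ± 56.3 in *Sca-1*-YFP- cells, -1.73) and *Igf2* higher, with 83.0, 149, 109 and 89.0 in *Bmi1*-CPC, against 32.0, 78.1, 40.5 and 34.1 in *Sca-1*-YFP- cells (a log2 fold change of 1.26 ± 0.26, adjusted p = 0.00206). The binding protein *Igfbp4* was lower (107 ± 23.3 in *Bmi1*-CPC against 430.2 ± 40.5 in *Sca-1*-YFP- cells, -2.01), and the receptors *Igf1r* and *Igf2r* were not called (-0.12 and -0.17). The list gave 1 of 14 higher and 7 lower. Of 18 genes of retinoid metabolism 3 were higher and 8 lower. All 3 retinaldehyde dehydrogenases on the list, which make retinoic acid, were lower: *Aldh1a1* (-1.60), *Aldh1a2* (-1.95) and *Aldh1a3* (-1.66). *Rbp7*, a retinol-binding protein of capillaries, was higher (42.4 ± 12.4 in *Bmi1*-CPC against 10.6 ± 5.33 in *Sca-1*-YFP- cells, 1.96).

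Endothelial genes were higher nearly throughout. All 26 endothelial markers were called, with log2 fold changes between 0.59 and 1.83 and a median of 1.61. *Cdh5*, the adhesion molecule of endothelial junctions, had 1579, 1782, 1949 and 1813 in *Bmi1*-CPC, against 373, 874, 552 and 564 in *Sca-1*-YFP- cells, and *Kdr*, the main VEGF receptor, 924, 995, 1858 and 1483 in *Bmi1*-CPC, against 214, 518, 468 and 454 in *Sca-1*-YFP- cells. Replicate 2 was the highest of the *Sca-1*-YFP- libraries for both genes, and the populations still did not overlap. Leaving that library out kept all 26 calls, with a median of 1.78. Most members changed by nearly the same factor (interquartile range 1.45 to 1.70), and the smallest changes were those of *Tek* (426 ± 90.0 in *Bmi1*-CPC against 280.1 ± 40.4 in *Sca-1*-YFP- cells, 0.59), the angiopoietin receptor, and *Eng* (617 ± 44.9 in *Bmi1*-CPC against 313 ± 47.6 in *Sca-1*-YFP- cells, 0.98), a coreceptor of the TGF-beta family. *Tek* lost its call under library totals and without replicate 4 of both populations. Of 23 transcription factors of endothelium 18 were higher, led by *Erg* with 284, 253, 222 and 231 in *Bmi1*-CPC, against 41.4, 81.7, 54.7 and 52.3 in *Sca-1*-YFP- cells (a log2 fold change of 2.12 ± 0.17, adjusted p = 4.40e-06). *Sox17* (1.67), *Sox18* (1.56), *Gata2* (1.67) and *Fli1* (1.61) were close to each other, and *Heyl* was lower (99.7 ± 14.7 in *Bmi1*-CPC against 228 ± 56.1 in *Sca-1*-YFP- cells, -1.16).

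Genes of each vascular subtype were among the higher ones. Of 16 arterial genes 13 were higher and 1 was lower (*Fbln5*, an elastic fibre gene), of 15 heart capillary genes 14 were higher, and of 11 venous and endocardial genes 5 were higher and 2 lower (*Vcam1*, -1.03, and *Cytl1*, -1.25). The arterial factor *Sox17* had 56.4 ± 6.89 in *Bmi1*-CPC against 18.3 ± 8.91 in *Sca-1*-YFP- cells and the venous receptor *Ephb4* 223 ± 12.2 in *Bmi1*-CPC against 97.4 ± 25.3 in *Sca-1*-YFP- cells (1.22), while *Nr2f2*, the factor of venous identity, was not called (33.9 ± 4.20 in *Bmi1*-CPC against 29.2 ± 3.13 in *Sca-1*-YFP- cells, 0.20). *Npr3*, a marker of the endocardium, was higher (28.7 ± 5.92 in *Bmi1*-CPC against 13.3 ± 4.41 in *Sca-1*-YFP- cells, 1.09). The lymphatic genes fell into separate sets. *Mmrn1* had 25.6, 12.5, 24.5 and 22 in *Bmi1*-CPC, against 0.158, 0.334, 0.348 and 0.138 in *Sca-1*-YFP- cells and *Reln* 26.8, 16.1, 26.4 and 21.5 in *Bmi1*-CPC, against 0.790, 1.00, 1.74 and 0.414 in *Sca-1*-YFP- cells, so that *Mmrn1* was under the floor of 3 reads in every *Sca-1*-YFP- library. *Lyve1*, a hyaluronan receptor also found on macrophages, and *Ccl21a*, a chemokine of lymphatic vessels, had log2 fold changes of 3.54 and 3.61. *Prox1*, the factor of lymphatic identity, had 24.4, 17.8, 19.1 and 13.3 in *Bmi1*-CPC, against 3.32, 6.35, 4.07 and 4.00 in *Sca-1*-YFP- cells (a log2 fold change of 1.86 ± 0.22, adjusted p = 4.51e-05). *Pdpn*, which lymphatic endothelium shares with fibroblasts, was lower (5.72 ± 1.11 in *Bmi1*-CPC against 27.4 ± 1.81 in *Sca-1*-YFP- cells, -2.09), as were *Thy1*, *Sema3d* and *Fgl2*. The list gave 6 higher and 4 lower of 10, and 1 of the 10, *Mmrn1*, had passed the filter only through *Bmi1*-CPC libraries.

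Of 25 VEGF, angiopoietin and apelin genes 14 were higher and 5 lower. The receptors *Kdr*, *Flt1*, *Flt4*, *Nrp1*, *Nrp2*, *Tie1*, *Tek* and *Aplnr* were all higher, and the lower genes were all ligands: *Vegfa* with 25.0, 28.5, 22.5 and 22.7 in *Bmi1*-CPC, against 45.6, 41.8, 56.6 and 62.8 in *Sca-1*-YFP- cells, *Pgf* (-1.44), *Figf* (VEGF-D, -2.0), *Angpt1* (-1.73) and *Angptl2* (-1.66). *Angpt2*, which endothelial cells make themselves, was higher (20.8 ± 3.31 in *Bmi1*-CPC against 10.8 ± 2.61 in *Sca-1*-YFP- cells, 0.89), as was *Apln* (34.2 ± 1.49 in *Bmi1*-CPC against 9.92 ± 3.75 in *Sca-1*-YFP- cells, 1.75), while *Vegfc* was not called (34.8 ± 2.69 in *Bmi1*-CPC against 27.9 ± 9.78 in *Sca-1*-YFP- cells, 0.37). Notch genes were higher in 13 of 24 cases and lower in 4, the lower ones being *Notch2*, *Heyl*, *Rbpj* (-0.58), the DNA-binding partner of Notch, and *Dtx4* (-1.60). *Notch1*, *Notch3* and *Notch4* were higher at 1.21, 1.24 and 1.42, and *Notch2* was lower with 92.8, 89.0, 81.5 and 94.8 in *Bmi1*-CPC, against 258, 195, 290.0 and 276 in *Sca-1*-YFP- cells (a log2 fold change of -1.49 ± 0.13, adjusted p = 5.69e-06). Among the targets *Hey1* was higher (115 ± 2.99 in *Bmi1*-CPC against 41.4 ± 13.7 in *Sca-1*-YFP- cells, 1.51) and *Heyl* lower, and *Hes1* was not called (0.36).

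Guidance genes were split, with 11 of 34 semaphorin, plexin, Slit and netrin genes higher and 16 lower. Among class 3 semaphorins, secreted cues that act through neuropilins and plexins, *Sema3a*, *Sema3f* and *Sema3g* were higher (1.63, 1.35 and 1.35) and *Sema3b*, *Sema3c* and *Sema3d* lower (-1.33, -2.19 and -1.31). *Sema3c* had 39.5, 29.7, 21.1 and 29.4 in *Bmi1*-CPC, against 132, 133, 177 and 113 in *Sca-1*-YFP- cells and *Sema3g* 40.7, 45.1, 41.1 and 31.1 in *Bmi1*-CPC, against 12.3, 23.1, 11.7 and 14.2 in *Sca-1*-YFP- cells, both without overlap and in opposite directions. The Slit ligands *Slit2* and *Slit3* and the receptor *Robo1* were lower (-1.74, -1.99 and -1.71), and *Robo4*, the endothelial member, was higher (253 ± 39.7 in *Bmi1*-CPC against 88.6 ± 32.2 in *Sca-1*-YFP- cells, 1.56). Ephrins and Eph receptors gave 7 higher and 6 lower of 14. The vessel pair *Efnb2* (241 ± 48.0 in *Bmi1*-CPC against 82.0 ± 37.8 in *Sca-1*-YFP- cells, 1.62) and *Ephb4* was higher together with *Epha2* (1.43) and *Ephb1* (1.47), and *Epha3*, *Epha7* and *Ephb2* were lower (-1.13, -1.43 and -1.32).

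Of 15 pericyte genes 12 were higher and 2 lower, *Pdgfrb* and *Ndufa4l2* (-0.59), a mitochondrial protein. Of the 15, 1 had passed the filter only through *Bmi1*-CPC libraries and was called higher. No pericyte gene was lower without *Sca-1*-YFP- replicate 1 or without its replicate 4, and 1 was lower when *Bmi1*-CPC replicate 1, *Bmi1*-CPC replicate 4 or *Sca-1*-YFP- replicate 3 was left out. *Rgs5*, a regulator of G protein signals and marker of pericytes, had 969, 1178, 1767 and 1304 in *Bmi1*-CPC, against 83.3, 402, 187 and 151 in *Sca-1*-YFP- cells. Replicate 3 of the *Bmi1*-CPC was the highest, and every *Sca-1*-YFP- library lay below every *Bmi1*-CPC library (a log2 fold change of 2.85 ± 0.36, adjusted p = 6.60e-05). *Kcnj8* and *Abcc9*, the subunits of the pericyte potassium channel gated by ATP, had 54.8 ± 7.99 in *Bmi1*-CPC against 9.16 ± 4.13 in *Sca-1*-YFP- cells (2.53) and 258 ± 35.7 in *Bmi1*-CPC against 83.0 ± 13.2 in *Sca-1*-YFP- cells (1.62). *Pdgfrb*, the PDGF receptor that both pericytes and fibroblasts carry, was lower by a small margin (109, 134, 129 and 105 in *Bmi1*-CPC, against 188, 128, 172 and 161 in *Sca-1*-YFP- cells, a log2 fold change of -0.44 ± 0.14, adjusted p = 0.0237). That call was lost without *Bmi1*-CPC replicate 1 (adjusted p = 0.0571) or 4 (0.0782), and without *Sca-1*-YFP- replicate 1 (0.0759), 3 (0.0698) or 4 (0.0522). Its ligands *Pdgfb* and *Pdgfd* were higher (84.8 ± 12.6 in *Bmi1*-CPC against 26.4 ± 8.02 in *Sca-1*-YFP- cells and 1.68 for *Pdgfb*, 62.9 ± 7.09 in *Bmi1*-CPC against 29.6 ± 11.9 in *Sca-1*-YFP- cells and 1.13 for *Pdgfd*). Of 24 PDGF, FGF and HGF genes 6 were higher and 13 lower, the lower ones including the ligands *Fgf7* (-1.85), *Fgf10* (-1.52) and *Fgf2* (-1.17) and the receptor *Fgfr1* (78.8 ± 13.6 in *Bmi1*-CPC against 233 ± 30.2 in *Sca-1*-YFP- cells, -1.56). Smooth muscle genes gave 8 higher (5 without both replicates 3) and 2 lower of 12, with *Myh11*, the smooth muscle myosin, at 49.3, 105, 133 and 67.2 in *Bmi1*-CPC, against 16.5, 54.3, 15 and 15.6 in *Sca-1*-YFP- cells.

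Of 20 cardiomyocyte genes 19 were higher and none lower. *Actc1*, cardiac actin, had 185, 202, 250.4 and 169.8 in *Bmi1*-CPC, against 15, 49.8, 23.3 and 17.2 in *Sca-1*-YFP- cells, and *Myh6*, the main myosin of the adult mouse heart, 88.9, 102, 197 and 99.6 in *Bmi1*-CPC, against 7.95, 18.6, 10.8 and 10.6 in *Sca-1*-YFP- cells. Atrial genes were among them: *Nppa*, the atrial natriuretic peptide, had 90.7, 41.5, 116 and 84.7 in *Bmi1*-CPC, against 4.06, 9.47, 5.92 and 3.73 in *Sca-1*-YFP- cells, and *Myl7* and *Myl4*, atrial myosin light chains, had log2 fold changes of 2.77 and 2.76. The ventricular light chains *Myl2* and *Myl3* were higher by similar amounts (2.46 and 2.52). The genes of calcium handling and ion channels did not follow: of 16 tested 3 were higher (5 without *Bmi1*-CPC replicate 2) and 6 lower. *Gja1*, the main gap junction protein of ventricular muscle, was higher (1.20), and so was the potassium channel *Kcnq1* (1.03). Calcium genes stood on the cardiomyocyte list too. *Atp2a2*, the calcium pump of the sarcoplasmic reticulum that other cell types make as well, was the gene of that list without a call (301 ± 72.7 in *Bmi1*-CPC against 325 ± 36.6 in *Sca-1*-YFP- cells, -0.14). *Ryr2*, the release channel, also on the cardiomyocyte list, was higher (17.3 ± 8.55 in *Bmi1*-CPC against 3.89 ± 1.97 in *Sca-1*-YFP- cells, 1.88). *Slc8a1*, the sodium-calcium exchanger, was lower (7.25 ± 2.29 in *Bmi1*-CPC against 13.2 ± 1.56 in *Sca-1*-YFP- cells, -0.82). Among 9 heart muscle transcription factors 5 were higher and 1 lower, *Gata4*. *Tbx20*, lower as given above, was not among these 9. *Mef2c*, also a factor of endothelium, had 267 ± 37.7 in *Bmi1*-CPC against 132 ± 30.5 in *Sca-1*-YFP- cells (1.03), and *Myocd*, the coactivator of smooth and cardiac muscle genes, 4.72 ± 0.539 in *Bmi1*-CPC against 1.06 ± 1.16 in *Sca-1*-YFP- cells (1.61).

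**Figure D3:**
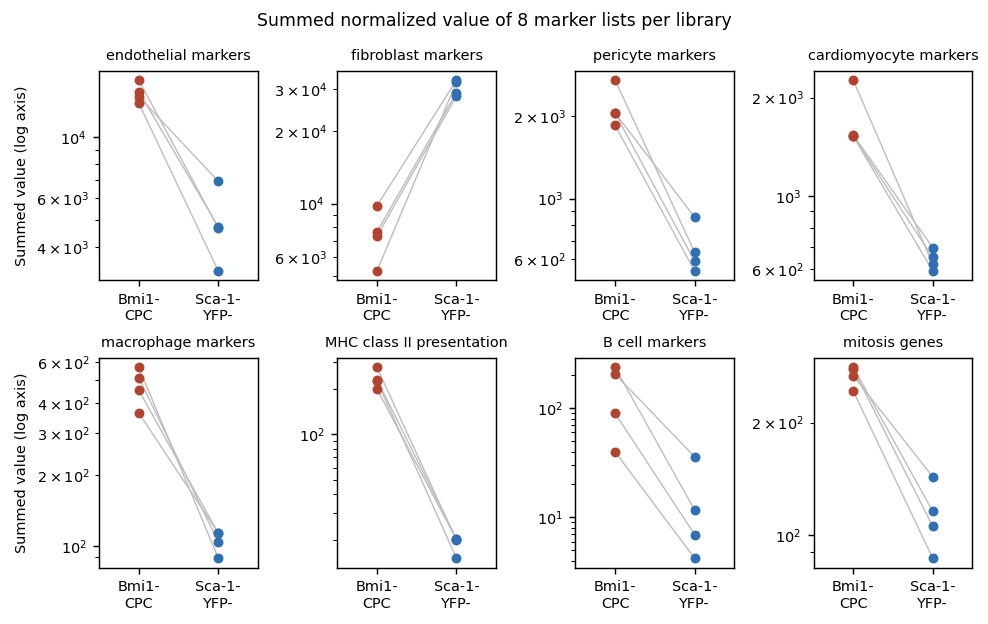
Summed normalized value of 8 marker lists in each of the 8 libraries (log axis), *Bmi1*-CPC at the left and *Sca-1*-YFP- cells at the right, with lines joining libraries of the same replicate number. Endothelial, pericyte, cardiomyocyte and MHC class II sums were higher in every *Bmi1*-CPC library, fibroblast sums were lower in every one, and the B cell sum varied most between libraries of a population (39.7 to 235 in *Bmi1*-CPC).

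Leukocyte genes set the upper end of the changes. Of the 15 genes that were higher by most (mean of at least 10 and no overlap), 9 belonged to the leukocyte, macrophage or MHC class II lists. *Ptprc*, which encodes CD45 and was used to remove cells from the *Sca-1*-YFP- sort, had 16.1, 16.3, 14.7 and 22.5 in *Bmi1*-CPC, against 1.74, 2.12, 0.813 and 1.79 in *Sca-1*-YFP- cells (a log2 fold change of 2.83 ± 0.22, adjusted p = 3.40e-06). Of 12 general leukocyte genes 11 were higher, and 1 was lower, *Lsp1* (40.2 ± 8.13 in *Bmi1*-CPC against 153 ± 21.7 in *Sca-1*-YFP- cells, -1.91), an actin-binding protein. Summed over the 12, the values overlapped, at 155 to 214 in *Bmi1*-CPC against 153 to 193 in *Sca-1*-YFP- cells. *Lsp1* made up most of the *Sca-1*-YFP- sum. Among the 15 leading genes were *Lyz2*, *Cd74* (5.09), *Mrc1* (4.43), *F13a1* (4.06), *Cybb* (3.86) and *H2-Ab1* (3.84). *Lyz2*, a lysozyme of myeloid cells, had 143, 56.8, 91.3 and 129 in *Bmi1*-CPC, against 0.369, 0.557, 0.813 and 0.138 in *Sca-1*-YFP- cells and *Csf1r*, the macrophage growth factor receptor, 27.4, 22.9, 20.3 and 21.5 in *Bmi1*-CPC, against 0.474, 1.00, 0.813 and 0.138 in *Sca-1*-YFP- cells. The sizes of these changes depend on the 1 added before the logarithm, since the *Sca-1*-YFP- values are near 0: that of *F13a1* was 3.28 with 2 added and 6.40 in edgeR with TMM. Macrophage genes gave 16 of 18 higher, but 10 of the 18 passed the filter only through *Bmi1*-CPC libraries, as did 4 of the 12 general leukocyte genes, 5 of 7 B cell genes and 6 of the 15 leading genes, so that the filter fixed their direction. *Ccl3*, *Emr1* (the macrophage adhesion receptor now called *Adgre1*) and *C1qc* were among the genes that had 0 reads in all 4 *Sca-1*-YFP- libraries. Against a floor of 3 reads in each of those libraries these 3 were at least 9.72-fold, 10.3-fold and 19.8-fold higher in *Bmi1*-CPC. No gene with a mean of at least 5 in *Sca-1*-YFP- cells had 0 reads in all *Bmi1*-CPC libraries. B cell genes gave 6 of 7 higher, and *Ighm*, the constant part of IgM, varied widely with 199.6, 17.0, 61.0 and 158 in *Bmi1*-CPC, against 7.85, 0.334, 4.76 and 31.3 in *Sca-1*-YFP- cells. Its *Bmi1*-CPC replicate 2 lay below *Sca-1*-YFP- replicate 4, so the populations overlapped. Erythroid genes were higher too (3 of 3, with *Hba-a1* at 2.36 and *Hbb-b2* at 2.45). *Hbb-b1* had 38.0, 39.8, 44.0 and 70.5 in *Bmi1*-CPC, against 4.90, 13.5, 10.8 and 9.80 in *Sca-1*-YFP- cells, and it and *Hbb-b2* are near-identical, so that their reads may have been split between them. T cell genes gave no call in 2 tested, 1 neutrophil gene gave none, and the other T cell, NK cell and neutrophil genes on the lists were not analysed here.

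Antigen presentation was higher in both classes. Class II gave 8 of 9 genes higher, and 1 of the 9 had passed the filter only through *Bmi1*-CPC libraries. *H2-Aa*, a class II alpha chain, had 44.2, 57.0, 53.5 and 54.7 in *Bmi1*-CPC, against 1.00, 2.34, 1.05 and 1.52 in *Sca-1*-YFP- cells. *H2-Eb1*, a class II beta chain, had 9.32, 7.36, 7.43 and 9.25 in *Bmi1*-CPC, against 0.263, 0.557, 1.28 and 0.414 in *Sca-1*-YFP- cells. Neither gene overlapped between the populations. Class I presentation gave 15 of 21 higher and 1 lower (*Calr*, a chaperone of the endoplasmic reticulum, at 137 ± 8.40 in *Bmi1*-CPC against 182 ± 35.6 in *Sca-1*-YFP- cells, whose call was lost under totals without mitochondrial genes, adjusted p = 0.104, and without any one of 7 libraries, with an adjusted p up to 0.149 without *Sca-1*-YFP- replicate 3). Among the larger changes were those of non-classical genes and inducible proteasome subunits. *H2-Q6*, which shares reads with its near-identical neighbours *H2-Q4* and *H2-Q7*, had 141 ± 58.2 in *Bmi1*-CPC against 41.6 ± 19.1 in *Sca-1*-YFP- cells (1.76), *Psmb9* 40.5 ± 5.89 in *Bmi1*-CPC against 14.9 ± 3.49 in *Sca-1*-YFP- cells (1.40) and *Psmb8* 33.5 ± 0.694 in *Bmi1*-CPC against 13.8 ± 4.48 in *Sca-1*-YFP- cells (1.27). The constitutive subunits of the proteasome gave 1 higher (3 without *Sca-1*-YFP- replicate 2) and none lower of 31 (3 lower under library totals), well under the background. *Nlrc5*, the transactivator of class I genes, was higher (31.4 ± 7.63 in *Bmi1*-CPC against 12.5 ± 2.10 in *Sca-1*-YFP- cells, 1.25). *B2m*, the light chain shared by all class I molecules, had 1773 ± 246 in *Bmi1*-CPC against 1237 ± 267 in *Sca-1*-YFP- cells (0.53), a call that was lost under library totals and when *Bmi1*-CPC replicate 1, 3 or 4 was left out, or *Sca-1*-YFP- replicate 1 or 4 (adjusted p up to 0.104, without *Bmi1*-CPC replicate 4).

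Interferon-stimulated genes gave 23 of 41 higher and none lower, with a median of 0.62. Their number was 15 without both replicates 3 and 13 without both replicates 4. *Rsad2* (viperin), an antiviral enzyme, had 148, 227, 232 and 198 in *Bmi1*-CPC, against 30.4, 102, 49.1 and 56.7 in *Sca-1*-YFP- cells (a log2 fold change of 1.85 ± 0.28, adjusted p = 2.54e-04). *Gbp4* (234 ± 68.2 in *Bmi1*-CPC against 81.5 ± 35.6 in *Sca-1*-YFP- cells, 1.60, with part of its sequence shared with *Gbp6*), *Gbp7* (353 ± 86.4 in *Bmi1*-CPC against 166 ± 45.9 in *Sca-1*-YFP- cells, 1.09) and *Ifi44* (95.2 ± 30.5 in *Bmi1*-CPC against 31.3 ± 14.7 in *Sca-1*-YFP- cells, 1.67) were among the others. *Isg15* (19.4 ± 8.34 in *Bmi1*-CPC against 11.1 ± 6.55 in *Sca-1*-YFP- cells, 0.80), *Ifit1* (162 ± 111 in *Bmi1*-CPC against 133 ± 129 in *Sca-1*-YFP- cells, 0.49) and *Irf1* (126 ± 73.7 in *Bmi1*-CPC against 84.8 ± 38.8 in *Sca-1*-YFP- cells, 0.51) were not called. With the replicate number as a block these 3 passed (adjusted p = 0.00224, 0.0112 and 0.00193). The summed value of the list was 4245 to 6005 in *Bmi1*-CPC against 2835 to 4570.2 in *Sca-1*-YFP- cells, so that *Sca-1*-YFP- replicate 2 lay above *Bmi1*-CPC replicate 1.

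Promoters of 3 groups, MHC class II, interferon-stimulated and mitosis genes, are shown because many of their members moved together and because each shown carries a short motif known from such promoters. The sequences are from RefSeq (build GRCm38.p6), which held a promoter for 8550 of the tested genes. Each run gives the 150 bases before the start site, 5′ to 3′ on the strand of the gene, with matches to the motif in capitals. For *H2-Aa* (chr17:34287824-34287973, minus strand) and *H2-Eb1* (chr17:34305717-34305866, plus strand) the capitals mark the Y box CTGATTGG of MHC class II promoters, which begins 51 and 62 bases before the start.
H2-Aa: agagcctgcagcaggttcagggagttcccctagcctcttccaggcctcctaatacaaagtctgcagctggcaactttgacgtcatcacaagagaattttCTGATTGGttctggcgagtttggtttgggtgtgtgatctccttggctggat
H2-Eb1: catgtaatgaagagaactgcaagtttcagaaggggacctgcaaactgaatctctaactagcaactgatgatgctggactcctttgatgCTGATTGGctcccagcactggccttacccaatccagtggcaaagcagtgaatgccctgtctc
For *Rsad2* (chr12:26456453-26456602, minus strand) and *Gbp7* (chr3:142530186-142530335, plus strand) they mark GAAA, any 2 bases and GAAA again, the core of the interferon-stimulated response element, or the same letters read on the other strand.
Rsad2: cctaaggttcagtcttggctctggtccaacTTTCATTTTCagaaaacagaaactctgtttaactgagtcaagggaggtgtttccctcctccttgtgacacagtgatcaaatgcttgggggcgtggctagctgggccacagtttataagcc
Gbp7: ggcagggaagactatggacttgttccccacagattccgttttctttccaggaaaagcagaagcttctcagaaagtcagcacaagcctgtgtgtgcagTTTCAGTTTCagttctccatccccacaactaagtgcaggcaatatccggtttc
For *Cdk1* (chr10:69352913-69353062, minus strand), the kinase that drives entry into mitosis, they mark TTTGAA, the cell cycle homology region.
Cdk1: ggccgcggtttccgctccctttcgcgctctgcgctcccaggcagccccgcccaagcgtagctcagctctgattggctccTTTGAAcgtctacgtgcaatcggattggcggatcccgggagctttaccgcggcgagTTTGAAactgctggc
In windows of 300 bases (250 before and 50 after the start), on both strands and whatever other motif they overlap, GAAA followed by any 2 bases and GAAA was found in 13 of 17 interferon-stimulated genes called higher that had a promoter and in 5 of 14 that were not called, against 3.83% of all tested genes. CTGATTGG was found in 2 of 7 class II genes and 8 of 17 class I genes, against 6.58%. It was also found in 5 of 20 mitosis and 4 of 20 DNA replication genes. TTTGAA was found in 15 of 20 mitosis genes, against 14.1%, in 11 of 14 called higher and 4 of 6 not called. A match describes letters in a window and is not a bound site, and the lists were drawn up from genes known for these pathways.

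Chemokines were divided between the populations. Of 18 ligands 9 were higher and 7 lower. Of the 18, 3 had passed the filter only through *Bmi1*-CPC libraries, and all 3 were among those called higher. *Cxcl12*, the ligand that holds progenitor cells in their niche, had 1061, 1248, 1408 and 1310.1 in *Bmi1*-CPC, against 315, 689, 451 and 428 in *Sca-1*-YFP- cells, and *Cxcl9*, an interferon-inducible ligand, 68.2, 146, 83.5 and 88.3 in *Bmi1*-CPC, against 12.5, 70.5, 24.7 and 18.9 in *Sca-1*-YFP- cells. On the other side, *Ccl7*, *Ccl11* and *Cxcl14* were lower, with 9.38 ± 2.40 in *Bmi1*-CPC against 33.3 ± 7.68 in *Sca-1*-YFP- cells (-1.73), 11.3 ± 4.15 in *Bmi1*-CPC against 33.4 ± 12.4 in *Sca-1*-YFP- cells (-1.46) and 5.27 ± 2.62 in *Bmi1*-CPC against 24.8 ± 5.30 in *Sca-1*-YFP- cells (-2.12). The receptors of CXCL12 had opposite directions: *Cxcr4*, which signals, had 22.9 ± 4.09 in *Bmi1*-CPC against 6.09 ± 1.85 in *Sca-1*-YFP- cells (1.78) and *Cxcr7*, which removes the ligand, 98.8 ± 29.3 in *Bmi1*-CPC against 264 ± 34.2 in *Sca-1*-YFP- cells (-1.45). Cytokines, TNF ligands and their receptors gave 9 higher and 12 lower of 37. *Il6*, *Il33* and *Lif* were lower (-1.96, -1.74 and -1.72), and *Il1b* (7.55 ± 2.62 in *Bmi1*-CPC against 0.187 ± 0.0999 in *Sca-1*-YFP- cells, 2.81) and *Tnfsf10*, the death ligand TRAIL (201 ± 32.9 in *Bmi1*-CPC against 69.6 ± 31.9 in *Sca-1*-YFP- cells, 1.61), were higher. *Il1b* was the 1 gene of the 37 that had passed the filter only through *Bmi1*-CPC libraries, so that the filter fixed its direction. Complement was split by component. The 3 chains of C1q, *C1qa*, *C1qb* and *C1qc*, were higher, and so were the receptors *C3ar1* (7.26 ± 2.96 in *Bmi1*-CPC against 0.413 ± 0.285 in *Sca-1*-YFP- cells, 2.50) and *C5ar1* (3.62 ± 1.26 in *Bmi1*-CPC against 0.105 ± 0.0365 in *Sca-1*-YFP- cells, 2.03). The proteases *C1ra* (-1.96) and *C1s* (-1.79), which act with C1q, were lower, as were *C4b* (-2.17), *C3* with 728, 561, 481 and 740.0 in *Bmi1*-CPC, against 3756, 2535, 4304 and 3777 in *Sca-1*-YFP- cells, *C7* (-2.16) and the inhibitor *Serping1* (-2.08). In all 10 of 24 were higher and 11 lower, and 7 of the 24 had passed the filter only through *Bmi1*-CPC libraries.

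**Figure D4:**
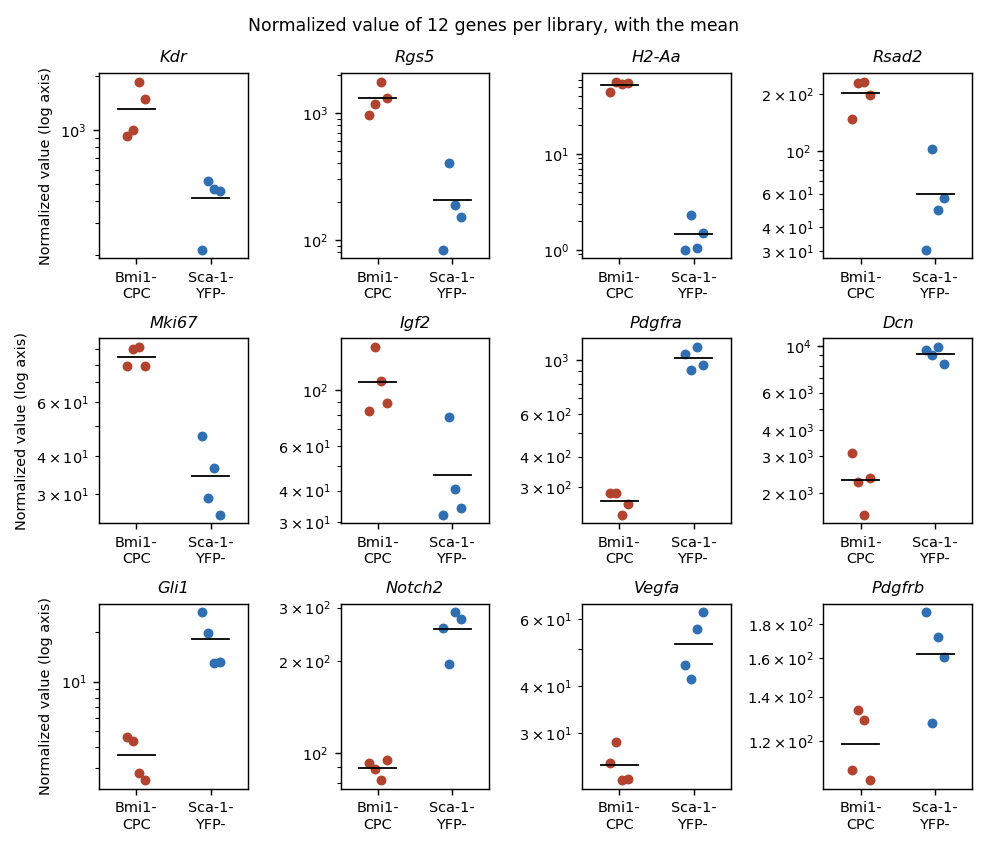
Normalized value (log axis) of 12 genes in each library, *Bmi1*-CPC at the left of each panel and *Sca-1*-YFP- cells at the right, with lines for the means. *Kdr*, *Rgs5*, *H2-Aa*, *Rsad2*, *Mki67* and *Igf2* were higher and *Pdgfra*, *Dcn*, *Gli1*, *Notch2* and *Vegfa* lower in *Bmi1*-CPC without overlap, and *Pdgfrb* was lower with overlap.

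Of 24 mitosis genes 16 were higher and none lower, with a median of 0.94, and of 24 DNA replication genes 6 were higher and none lower (median 0.34). The number of DNA replication genes called higher was 3 without both replicates 1 or both replicates 3. *Mki67*, the proliferation antigen, had 79.1, 89.7, 91.5 and 78.9 in *Bmi1*-CPC, against 46.6, 29.1, 36.6 and 25.5 in *Sca-1*-YFP- cells (a log2 fold change of 1.31 ± 0.17, adjusted p = 6.74e-05), and the populations did not overlap. *Top2a* had 31.0 ± 5.19 in *Bmi1*-CPC against 12.4 ± 2.00 in *Sca-1*-YFP- cells (1.25), *Cenpf* 26.4 ± 4.66 in *Bmi1*-CPC against 7.75 ± 3.60 in *Sca-1*-YFP- cells (1.73) and *Cdk1* 3.45 ± 0.509 in *Bmi1*-CPC against 0.893 ± 0.426 in *Sca-1*-YFP- cells (1.25). Many of these genes were low, and *Aurkb*, *Birc5* and *Plk1*, with means under 3 in both populations, were not called (0.39, 0.27 and 0.48). The summed value of the mitosis genes was 243 to 281 in *Bmi1*-CPC against 86.9 to 143 in *Sca-1*-YFP- cells, without overlap. Of 17 CDK inhibitors and p53 targets 3 were higher, among them *Cdkn1c* (63.9 ± 8.36 in *Bmi1*-CPC against 34.2 ± 10.4 in *Sca-1*-YFP- cells, 0.92) and *Plk2* (385 ± 147 in *Bmi1*-CPC against 143 ± 94.5 in *Sca-1*-YFP- cells, 1.54), and 2 lower (4 under library totals, none without *Bmi1*-CPC replicate 1 or *Sca-1*-YFP- replicate 2, 3 or 4). *Cdkn1a*, a target of p53, was called only once the replicate number served as a block (137 ± 44.1 in *Bmi1*-CPC against 100.3 ± 38.4 in *Sca-1*-YFP- cells, 0.48, adjusted p = 0.00406 with the block), and *Cdkn2a* was not analysed here.

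Of 75 ribosomal protein genes none was higher and 5 were lower, with a median of -0.059, against 17.6% lower over all genes. Under library totals 18 were lower, and under totals without mitochondrial genes the median was 0.026. *Rps12* stood apart from the others with 5.77, 19.3, 14 and 13.1 in *Bmi1*-CPC, against 23.9, 43.8, 35.7 and 42.6 in *Sca-1*-YFP- cells (a log2 fold change of -1.48 ± 0.30, adjusted p = 0.00174), but it has near-identical pseudogenes, 1 of them listed, to which its reads may have gone. *Rpl7a* and *Rpl10*, which have such copies as well, and *Rpl39* were lower by small amounts (-0.40, -0.57 and -0.59). Of 57 nuclear genes of the respiratory chain 7 were higher and none lower (median 0.24). The share called, 12.3%, was below the 34.4% of all genes. The number of higher ones was 4 without *Bmi1*-CPC replicate 2 or *Sca-1*-YFP- replicate 1, 1 under library totals and 13 under totals without mitochondrial genes. The 15 mitochondrially encoded genes gave 13 calls, all higher, under the deposited scaling, beside the read shares given above, and *mt-Co1*, a subunit of cytochrome oxidase, had 34521 ± 2969 in *Bmi1*-CPC against 11785 ± 6300.2 in *Sca-1*-YFP- cells (1.70). Of 35 genes of fatty acid uptake, storage and oxidation 15 were higher and 3 lower (7 lower under library totals). Among the higher ones were those of uptake and storage, *Fabp4* (964 ± 114 in *Bmi1*-CPC against 240.3 ± 123 in *Sca-1*-YFP- cells, 2.11), *Cd36* (3284 ± 1144 in *Bmi1*-CPC against 1030.2 ± 497 in *Sca-1*-YFP- cells, 1.74), *Gpihbp1* (1.93) and *Lpl* (775 ± 104 in *Bmi1*-CPC against 467 ± 98.5 in *Sca-1*-YFP- cells, 0.75), while the oxidation enzymes *Acadvl*, *Acadl* and *Hadhb* were not called (0.10, 0.25 and 0.27). *Acadm* was higher (0.46) but not under library totals or without *Sca-1*-YFP- replicate 1 (adjusted p = 0.0558). Of 29 genes of glycolysis and the hypoxia response 9 were higher and 4 lower (median 0.16, or -0.037 under library totals, where 5 were higher). The hexokinase *Hk2* (-1.30) and the enolase *Eno2* (-1.40) were among the lower ones. *Epas1*, the hypoxia-inducible factor of endothelium, had 1644 ± 163 in *Bmi1*-CPC against 624 ± 187 in *Sca-1*-YFP- cells (1.43), and *Hif1a* was called only once the replicate number served as a block (90.7 ± 5.15 in *Bmi1*-CPC against 72.8 ± 10.1 in *Sca-1*-YFP- cells, 0.32, adjusted p = 0.0406 with the block).

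Genes that answer quickly to handling or to the time of day were also examined. Of 23 immediate early genes 2 were higher (none without *Bmi1*-CPC replicate 2 or *Sca-1*-YFP- replicate 1 or 3) and 6 lower. *Myc* had 31.9 ± 8.46 in *Bmi1*-CPC against 108 ± 16.2 in *Sca-1*-YFP- cells (-1.75) and *Nr4a1* 124 ± 45.9 in *Bmi1*-CPC against 263 ± 72.9 in *Sca-1*-YFP- cells (-1.11). *Egr1* had 1136, 3433, 1491 and 1604 in *Bmi1*-CPC, against 2578, 3417, 2945 and 3942 in *Sca-1*-YFP- cells, so that replicate 2 of the *Bmi1*-CPC overlapped with the *Sca-1*-YFP- libraries, and its call was lost without 6 of the 8 libraries in turn (adjusted p up to 0.101, without *Bmi1*-CPC replicate 1), under totals without mitochondrial genes (0.0868) and in edgeR with TMM (0.0633), edgeR with upper quartile (0.0587) and DESeq2 (0.157). *Fos*, *Jun* and *Atf3* were not called (-0.66, -0.32 and -0.28), although *Fos* was called with the replicate block (adjusted p = 0.00169). The summed value of the list was highest in replicate 2 of each population (14501 in *Bmi1*-CPC against 14426 in *Sca-1*-YFP- cells). Without *Bmi1*-CPC replicate 2 the number of lower genes was 15, and with the replicate number as a block 12. Of 18 clock genes none was higher and 4 were lower, *Bhlhe40* and *Rora* among them (-0.92 and -1.10). The core genes *Per1* and *Per2* were not called (-0.33 and -0.25), although *Per1* passed with the block (adjusted p = 0.0334). The number of lower clock genes was 12 with the replicate number as a block, and 2 when *Bmi1*-CPC replicate 3 or 4 was left out, or *Sca-1*-YFP- replicate 2. Glucocorticoid targets gave 2 higher and 7 lower of 18, with the kinase *Sgk1* (382 ± 18.7 in *Bmi1*-CPC against 175 ± 70.1 in *Sca-1*-YFP- cells, 1.20) and *Sult1a1* (1.41) higher and the metallothionein *Mt2* lower (7.26 ± 2.67 in *Bmi1*-CPC against 28.7 ± 11.5 in *Sca-1*-YFP- cells, -1.84). Cholesterol genes gave 3 higher and 3 lower of 25, a share below the background. *Abcg1*, which exports cholesterol, was among the higher ones (1.29) and *Lss*, an enzyme of its synthesis, among the lower (-0.80). The number of lower ones was 9 under library totals, 5 with the block and without *Bmi1*-CPC replicate 1 or *Sca-1*-YFP- replicate 2, and 1 without *Sca-1*-YFP- replicate 3.

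Pairs of ligands and receptors from general knowledge, 70 in all, were followed across the populations, since a secreted factor and its receptor need not come from the same cell. Both partners were tested in 61 pairs. In 13 of them the ligand was lower in *Bmi1*-CPC and the receptor higher. Among these were *Csf1* with *Csf1r*, *Vegfa* with *Kdr* and with *Flt1*, *Angpt1* with *Tek*, *Hgf* with *Met*, *Slit2* with *Robo4*, *Ntn1* with *Unc5b*, *Sema3c* with *Plxnd1*, *Lif* with *Lifr*, *Thbs1* with *Cd36*, *C3* with *C3ar1* and *Vcam1* with *Itga4*. *Csf1* had 84.2, 95.4, 89.5 and 107 in *Bmi1*-CPC, against 189, 166, 206 and 192 in *Sca-1*-YFP- cells and its receptor the values given above. In 4 pairs it was the other way round, and these were *Pdgfb* and *Pdgfd* with *Pdgfrb*, *Tgfb1* with *Tgfbr2* and *Dll1* with *Notch2*. Both partners were higher in 12 pairs, such as *Apln* with *Aplnr*, *Efnb2* with *Ephb4*, *Cxcl12* with *Cxcr4* and *Dll4* with *Notch1*, and both lower in 10, such as *Wnt5a* with *Ror2*, *Il6* with *Il6ra* and *Mdk* with *Lrp1*. *Mdk* lost its call under totals without mitochondrial genes and without any one of 4 libraries (adjusted p up to 0.0688, without *Bmi1*-CPC replicate 4). Under library totals *Tek*, *Unc5b*, *Lifr* and *Tgfb1* lost their calls. *Tgfb1* also lost it when *Bmi1*-CPC replicate 3 or 4 was left out, or *Sca-1*-YFP- replicate 1 or 4 (adjusted p up to 0.0801, without *Bmi1*-CPC replicate 4), and *Pdgfrb* as given above. The pairs describe in which population each RNA was higher and not whether the proteins met.

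**Figure D5:**
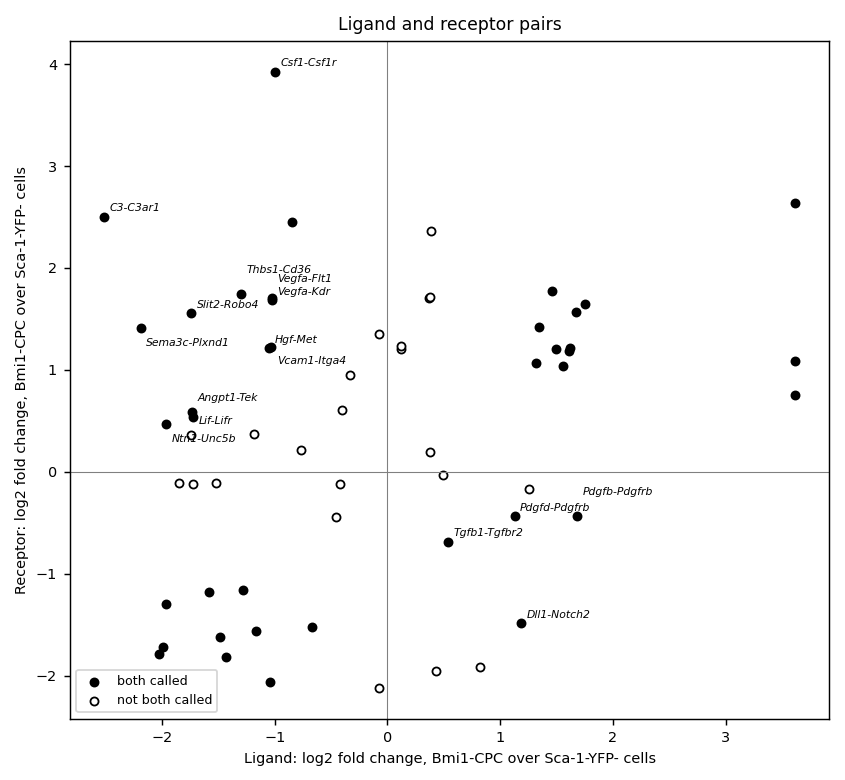
Log2 fold change (*Bmi1*-CPC over *Sca-1*-YFP- cells) of the ligand (horizontal axis) and of its receptor (vertical axis) for the 61 pairs with both partners tested, filled where both were called. The upper left part, ligand lower and receptor higher, holds 13 pairs with both called, and the lower right part 4.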

How the data were processed

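RNA of sorted cells was sequenced after amplification. Per the labels and the submitters' processing notes, reads were trimmed with cutadapt, counted per gene with RSEM on NCBIM37 and normalized with edgeR by the authors. In the deposited signal the reads, plus 0.5, were multiplied by 1 factor per library, and whole reads were recovered for 100% of the values (tolerance 1e-06). The deposited table also held the authors' own fold changes and adjusted p-values, which were not used. The 12450 genes whose value passed 1 in 4 or more of the 8 libraries were fitted with limma 3.58.1 on log2(value + 1) with a trended variance (two-sided, Benjamini-Hochberg adjusted p under 0.05), in R 4.3.3. Alternatives were the replicate number as a block, pseudocounts of 0.5 and 2, no filter and one at 5, edgeR 4.0.16 with TMM, upper quartile and library totals with and without mitochondrial genes, DESeq2 1.42.0, both on recovered reads, and leaving out libraries. The code was tested on simulated data.

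Libraries of the same number deviated together (correlations 0.26, 0.25, 0.16 and 0.30, against at most 0.081 between other numbers). The study calls the samples matched without saying by what, and the labels state no shared source. The pairing thus rests mainly on these correlations. Replicate 4 also had the lowest sex-linked sum of each population (201 in *Bmi1*-CPC against 184 in *Sca-1*-YFP- cells). A p-value measures the spread over pools of 6 mice. Named were the 15 leading genes per direction, the members of each list with the smallest p, the sorted genes, genes at 0 reads in 1 population, and the factors, ligands and receptors that define a list. Others were chosen after their values were seen, and members and lists were chosen with earlier results of these data known. Some items are not reported here.

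Strand was not given in the sources used here. Transcripts of GENCODE vM21 were searched with blastn 2.17.0 (95% identity over 300 bases), which gave listed copies for *Gbp4*, *H2-Q6*, *Hbb-b1*, *Hbb-b2*, *Rbpj*, *Rpl10*, *Rpl7a* and *Rps12*. Exons of *Acadvl*, *Adamts9*, *Col5a1*, *Csf1r*, *Fbn1*, *Fgf2*, *Fgfr1*, *Hif1a*, *Irf1*, *Itga4*, *Mest*, *Myl3*, *Notch1*, *Rbbp7* and *Timp4* overlap a listed gene on the other strand (bedtools 2.31.1), and those of *Entpd2* one on its own strand, and the reads of such genes may not be told apart. Figures were drawn with matplotlib 3.10.9.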

Additional observations from a re-analysis of the deposited data

Results flagged for a closer look

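Within each population, the highest or lowest of the 4 libraries was looked at where its gap to the nearest other one took more of the whole range than Dixon's 95% critical value for 4 samples allows. This was so for 41 of 634 sets of 4 values of the genes named, and chance alone marks about 1 set in 20. In *Bmi1*-CPC replicate 1 the value stood apart from those of the other 3 libraries of that population for *Agrn* (114, against 152 to 159), *Col4a4* (19.7, against 11.6 to 12.9), *Dll1* (4.59, against 9.01 to 9.70), *Sgce* (92.8, against 70.1 to 73.7) and *Thy1* (22, against 14.5 to 15.5). In *Bmi1*-CPC replicate 2 the value stood apart from those of the other 3 libraries of that population for *Aldh1a2* (22.5, against 16.2 to 16.7), *Dll4* (133, against 80.6 to 86.4), *Ifit1* (327, against 99.3 to 121), *Lss* (2.45, against 3.00 to 3.11), *Mrc1* (21.0, against 35.1 to 36.9), *Plk2* (603, against 292 to 338) and *Tgfb3* (46.6, against 32.4 to 34.7). In *Bmi1*-CPC replicate 3 the value stood apart from those of the other 3 libraries of that population for *Apln* (36.4, against 33.3 to 33.8), *Cd248* (30.3, against 45.1 to 47.9), *Myh6* (197, against 88.9 to 102) and *Vegfc* (38.9, against 33.4 to 33.6). In *Bmi1*-CPC replicate 4 the value stood apart from those of the other 3 libraries of that population for *Bmi1* (60.0, against 43.4 to 46.2), *Eln* (31.4, against 12.7 to 15.5), *Myl2* (14.1, against 18.8 to 19.1) and *Ptgs2* (55.1, against 36.1 to 39.1). In *Sca-1*-YFP- replicate 1 the value stood apart from those of the other 3 libraries of that population for *Notch4* (37.0, against 41.8 to 42.2), *Rora* (299, against 231 to 237), *Rybp* (25.6, against 36.2 to 37.5) and *Sparc* (4025, against 3197 to 3315). In *Sca-1*-YFP- replicate 2 the value stood apart from those of the other 3 libraries of that population for *Bmi1* (35.3, against 25.0 to 26.6), *Epas1* (905, against 526 to 535), *Gata2* (36.4, against 17.8 to 20.8), *Ifit1* (325, against 56.7 to 95.4), *Isg15* (20.8, against 7.04 to 8.94), *Lipe* (59.4, against 27.6 to 32.4), *Met* (1.23, against 0.579 to 0.690), *Myh11* (54.3, against 15 to 16.5), *Myocd* (2.79, against 0.348 to 0.685), *Plk2* (284, against 83.5 to 112), *Pparg* (34.4, against 13.4 to 15.6), *Smad1* (72.1, against 49.8 to 53.1), *Sult1a1* (53.4, against 26.1 to 30.4) and *Thy1* (26.9, against 42.6 to 43.8). In *Sca-1*-YFP- replicate 3 the value stood apart from those of the other 3 libraries of that population for *Aldh1a2* (99.3, against 61.6 to 66.6), *Ccr7* (0.813, against 0.111 to 0.158) and *Rpl39* (75.8, against 90.6 to 91.9). *Ifit1* and *Plk2* stood apart in replicate 2 of both populations, and *Sca-1*-YFP- replicate 2 was also the library with the highest endothelial sum of its population.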

How the results depend on the processing

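Counts of calls stayed within 1.5 times of 2090 higher and 2196 lower under all alternatives but scaling to library totals in edgeR, which gave 1327 higher and 3386 lower. By its construction that scaling counts the larger mitochondrial share of the *Bmi1*-CPC libraries in their totals, and with totals that leave those genes out the counts were 2472 and 1932. Leaving out 1 library at a time gave 1771 to 2157 higher and 1871 to 2205 lower, and leaving out both libraries of a number at least 1532 and 1614. With the replicate block the counts were 2267 and 2400, 4244 genes were called with and without it, and it changed no call of a named gene other than those given beside their values. On recovered reads edgeR with TMM called 2056 higher and 2216 lower, and DESeq2 2110 and 2129.

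Of 285 named genes called, 277 kept the call without each library in turn, and none changed direction in any alternative. Without both replicates 3, *Dll1*, *Id2*, *Lss*, *Peg10*, *Rbbp7* and *Rpl7a* lost it too, and without both replicates 4 *Dll1*, *Lss*, *Rbbp7*, *Rpl7a*, *Tcf4* and *Tek*, in fits of 3 libraries per population. Directions that turned belonged to genes without a call. They were those of *Acadvl* (-0.14), *Id3* (-0.12) and *Nr2f2* (-0.0428) under library totals, *Atp2a2* without both replicates 1 (0.0591), and *Id3* without both replicates 1 (-0.0101). Leaving out 1 library at a time gave log2 fold changes of -0.259 to 0.0376 for *Atp2a2*, -0.00336 to 0.487 for *Birc5* and -0.076 to 0.264 for *Id3*, which turned without *Bmi1*-CPC replicate 1, *Bmi1*-CPC replicate 4 and *Sca-1*-YFP- replicate 1 in that order. The stricter filter on values above 5 removed members of the immune, Eph and mitosis lists, whose counts fell by more than 1.5 times because fewer members were tested. The share of tested genes called was 23.4% at means of 1 to 5 and 65.6% above 300, so low genes without a call are not shown to be alike.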

Other observations

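Imprinted genes, which are expressed from 1 parental copy, formed no list of their own and were picked after their values were seen. *H19*, a long noncoding RNA next to *Igf2*, had 13.2, 11.6, 17.9 and 12.1 in *Bmi1*-CPC, against 1.63, 4.12, 2.67 and 1.79 in *Sca-1*-YFP- cells (a log2 fold change of 2.08 ± 0.24, adjusted p = 3.78e-05), and *Mest* had 90.7, 95.9, 90.5 and 92.6 in *Bmi1*-CPC, against 27.5, 41.3, 40.1 and 37.1 in *Sca-1*-YFP- cells (a log2 fold change of 1.33 ± 0.13, adjusted p = 1.28e-05). Both were higher in *Bmi1*-CPC without overlap, as *Igf2* was. On the other side, the RNAs *Meg3* and *Rian* of the *Dlk1* region had 39.8 ± 12.5 in *Bmi1*-CPC against 147 ± 64.4 in *Sca-1*-YFP- cells (-1.81) and 23.2 ± 7.25 in *Bmi1*-CPC against 73.3 ± 8.20 in *Sca-1*-YFP- cells (-1.66), and *Ndn* 6.11 ± 1.84 in *Bmi1*-CPC against 24.7 ± 2.69 in *Sca-1*-YFP- cells (-1.89). *Sgce* and its neighbour *Peg10* were lower together (-0.91 and -0.61), and *Peg3* was called only with the replicate number as a block (-0.39, adjusted p = 0.0315 with the block). Reads were not assigned to parental copies.

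The smaller lists of other cell types gave few tested genes, of which 1 dendritic cell, 2 monocyte, 1 myeloid factor and 4 pattern or Fc receptor genes passed the filter only through *Bmi1*-CPC libraries. All 3 dendritic cell genes were higher, *Ccr7* with 7.18 ± 2.30 in *Bmi1*-CPC against 0.305 ± 0.339 in *Sca-1*-YFP- cells (2.63), and 3 of 5 monocyte genes, *Itgam* with 13.6 ± 4.94 in *Bmi1*-CPC against 0.316 ± 0.221 in *Sca-1*-YFP- cells (3.43), while *Fn1*, fibronectin, was lower (-0.83). Of 6 mast cell genes 2 were higher, *Hdc* with 17.1 ± 5.19 in *Bmi1*-CPC against 5.07 ± 1.57 in *Sca-1*-YFP- cells (1.56), and 4 without *Bmi1*-CPC replicate 3. Of 7 Schwann cell genes 2 were higher and 1 was lower, *Cdh19* (12.9 ± 4.36 in *Bmi1*-CPC against 47.0 ± 9.24 in *Sca-1*-YFP- cells, -1.82). Of 12 genes on the adipocyte list 2 were tested, and both were higher. They were *Pparg* (60.3 ± 2.88 in *Bmi1*-CPC against 19.2 ± 10.2 in *Sca-1*-YFP- cells, 1.71) and *Lipe* (1.45). Pattern and Fc receptors gave 8 of 13 higher and 2 lower, with *Tlr7* higher (3.08 ± 1.91 in *Bmi1*-CPC against 0.300 ± 0.196 in *Sca-1*-YFP- cells, 1.56) and *Tlr4* lower (36.5 ± 3.96 in *Bmi1*-CPC against 62.7 ± 5.78 in *Sca-1*-YFP- cells, -0.77). Of 11 myeloid transcription factors 2 were higher and 4 lower, with *Ikzf1* at 1.91 and *Cebpa* at -1.03.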
